A study of Mus musculus with 13 samples.

Results

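Clustered protocadherins are cell-surface proteins of the cadherin family that are best known in the nervous system. Their genes lie in 3 neighbouring clusters on mouse chromosome 18, called α, β and γ. The members were taken as the genes of the mm9 annotation GENCODE M1 on that chromosome whose symbol begins with Pcdha, Pcdhb or Pcdhg. This rule found 25 of 37310 annotated genes, each protein-coding except Pcdhb20, which GENCODE M1 lists as a pseudogene. Of these 2 lie in the α cluster, 22 in the β cluster and 1 in the γ cluster, because GENCODE M1 merges most α isoforms into the gene Pcdha11 and the γ isoforms into the gene Pcdhgc5. The unit described here is therefore the variable exon, the large first exon that gives each isoform its own extracellular part. GENCODE M1 holds 41 variable exons of the members (10 α, 22 β and 9 γ). A further 17 were found in the mm9 sequence as plus-strand reading frames of at least 2000 bp (4 α and 13 γ). They were named by the RefSeq gene length closest to their distance to the end of the cluster. Frames without a free name within 1500 bp were dropped, so the set could not exceed the 58 isoforms that RefSeq lists, which it reached. The names fit least closely for Pcdha6 (1344 bp off) and Pcdhgb8 (1306 bp off).

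All samples were of Hepa 1-6, a mouse hepatoma cell line. KAP1, H3K9me3, H3K27ac and H3K4me1 were profiled by chromatin immunoprecipitation and sequencing (ChIP-seq) in cells that the source label of each sample places under standard culture, although the treatment protocol in the labels, the same text for every sample, speaks of transduction. The other 4 lists are of the RNA polymerases II (PolII) and III (PolIII), in cells that had been transduced 5 days before fixation with a control hairpin plasmid per the labels (the empty pLKO vector per the methods of the study) or with one carrying a hairpin against KAP1 (Kap1 KD), with puromycin selection in both. Each of the 8 lists of regions came from 1 library, so no value below could be set against a replicate spread and no test was run. The residual KAP1 was not computed here, and KAP1 itself was not profiled in the Kap1 KD cells.

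In the α and γ clusters each variable exon has its own promoter, and its transcript is spliced to constant exons shared by the whole cluster, whereas β genes consist of their own exon alone. Single neurons are known to use different small sets of these promoters, a choice that involves CTCF, cohesin and DNA methylation, while the C-type isoforms at the ends of the α and γ clusters (Pcdhac1, Pcdhac2, Pcdhgc3, Pcdhgc4 and Pcdhgc5) follow other rules and are used more uniformly. KAP1 (Trim28) is a corepressor brought to DNA mainly by KRAB zinc finger proteins, and it recruits SETDB1, which deposits H3K9me3. H3K27ac and H3K4me1 mark active regulatory chromatin.

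As a check of the cell type, the promoters (250 bp to each side of the 5′ end of the gene) of 12 hepatocyte markers and 12 neuron markers were compared with the lists. H3K27ac lay over 6 of the 12 hepatocyte promoters (Alb and Afp among them), against 19.9% of all protein-coding promoters, and H3K4me1 over 2 of 12 against 11.8%. Of the neuron markers 0 of 12 carried H3K27ac, H3K4me1 or PolII, and KAP1 (15.7% of all promoters) and H3K9me3 (5.24%) lay over the promoter of 1 of them, the neurofilament gene Nefl. PolII in the control cells lay over 1 of the 12 hepatocyte promoters, that of the transcription factor gene Foxa2, against 13.1% of all promoters. In the control no PolII peak lay over the promoters of the genes for secreted liver proteins, Alb, Apoa1, Apob and Ttr among them.

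**Figure D1:**
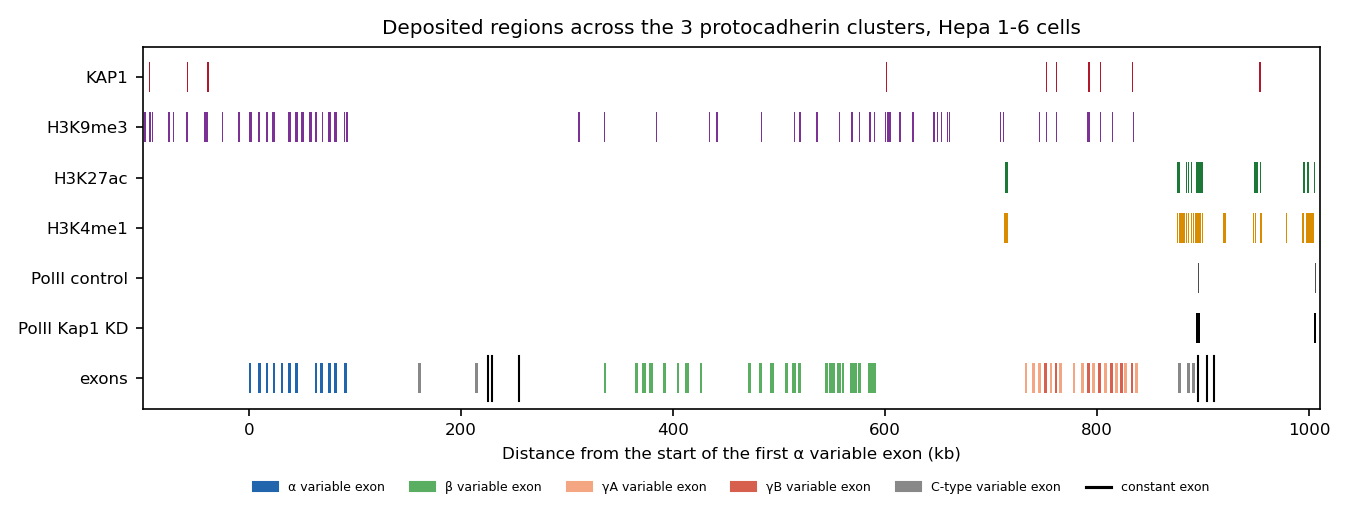
Regions of 6 deposited lists across the α, β and γ clusters (rows), against distance from the first α variable exon in kb; coloured blocks in the bottom row are variable exons, black bars are constant exons, and narrow regions are drawn at a minimum width so that they can be seen. H3K9me3 follows the α exons and thins over β, KAP1 appears over the γ exons in 5 places, and H3K27ac, H3K4me1 and PolII appear only at the end of the γ cluster, apart from the regions outside the clusters.

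H3K9me3 was the mark most often found over the variable exons. It lay over 19 of the 41 GENCODE M1 exons (46.3%) and over 27 of all 58 (46.6%). By comparison, the longest coding exon of 6.94% of all protein-coding genes overlapped an H3K9me3 region by at least 1 bp, the overlap used throughout. Variable exons are long, and of the 651 genes whose longest coding exon reached 2 kb, 22.1% carried the mark, or 21.5% of the 627 left without the members. The share over the protocadherin exons was close to that of the Zfp zinc finger genes, a gene family known to be coated by KAP1 and H3K9me3 (174 of 371, or 46.9%). It was far from that of the olfactory receptor genes, another large clustered family used mostly in neurons (60 of 1113, or 5.39%). Neither family was matched to the variable exons in exon length. Among the 12 protocadherin genes outside the clusters only Pcdh10 carried H3K9me3 over its longest coding exon.

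The 3 clusters differed. In the α cluster 11 of the 12 alternate isoforms, Pcdha1 to Pcdha12, had H3K9me3 over the exon, and Pcdha5 was the exception, with its nearest region 4965 bp away. In the β cluster 9 of 22 exons carried it. In the γ cluster it lay over 7 of 22. Variable γ exons fall into the types A and B by sequence, a division used here after the values had been seen, and H3K9me3 lay over 6 of the 7 γB exons and over 1 of the 12 γA exons, Pcdhga3. None of the 5 C-type exons carried it.

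The share of the exon covered differed as well. Over the 12 alternate α exons the median covered share was 43.3% of the exon, with a range from 0% to 70.8%. Pcdha8 had the longest stretch, a single region of 1696 bp that covered 70.8% of the exon, followed by Pcdha4 with 58.6% and Pcdha6 with 52.1%. Pcdha2 had the least of the α exons that carried the mark, 181 bp or 7.58%. Over the 11 marked α exons alone the median was 45.03% of the exon, over the 9 marked β exons 16.4% and over the 7 marked γ exons 33.7%. Over all 22 β exons and over all 22 γ exons the median was 0%. The β exons include untranslated sequence in GENCODE M1. As shares of the coding part the medians of the marked exons were closer, 45.03% for α, 31.96% for β and 35.73% for γ. By share of the exon Pcdhb22 and Pcdhb17 had the most among the β exons (25.8% and 25.7%), by share of the coding part Pcdhb20 and Pcdhb19 (36.4% and 35.9%), and Pcdhb13 had the least by either (7.34% and 11.3%). In the γ cluster Pcdhgb4 led with 54.8% and Pcdhgb5 followed with 45.3%. The single γA exon with the mark, Pcdhga3, had 208 bp or 8.08%.

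Within the α cluster the last H3K9me3 region lay on Pcdha12. The 92.3 kb from the first base of the cluster to the last base of Pcdha12 held 24 H3K9me3 regions that covered 13.3% of the sequence, 8.52 times the covered share of the genome (1.56%). The remaining 165 kb, with Pcdhac1, Pcdhac2 and the 3 constant exons, held 0. The nearest H3K9me3 region lay 67765 bp from Pcdhac1 and 94557 bp from Pcdhac2. Over the whole α cluster of 257 kb the covered share was 4.78%, over the β cluster of 256 kb 2.80% and over the γ cluster of 168 kb 3.40%, against 0.892% of chromosome 18. By region centres this was 9.32, 5.07 and 4.78 regions per 100 kb in α, β and γ. The γ cluster is counted from Pcdhga3, where its GENCODE M1 gene begins, unless stated otherwise. Counted from Pcdhga1, 3.16% of it was covered by H3K9me3.

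Inside the clusters the mark sat on exons rather than between them. Variable exons made up 13.2% of the α cluster but 89.8% of its H3K9me3-covered bases, 29.4% of the β cluster but 76.3% of the covered bases, and 30.9% of the γ cluster, counted from Pcdhga1, but 96.5% of the covered bases. Between the α exons, 5 regions lay in the gap from Pcdha7 to Pcdha8, and 4 regions of the β cluster lay off the exons. In the β cluster the marked exons gathered towards the end nearest the γ cluster. Of Pcdhb2 to Pcdhb9 none was covered, while Pcdhb19 to Pcdhb22 all were.

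**Figure D2:**
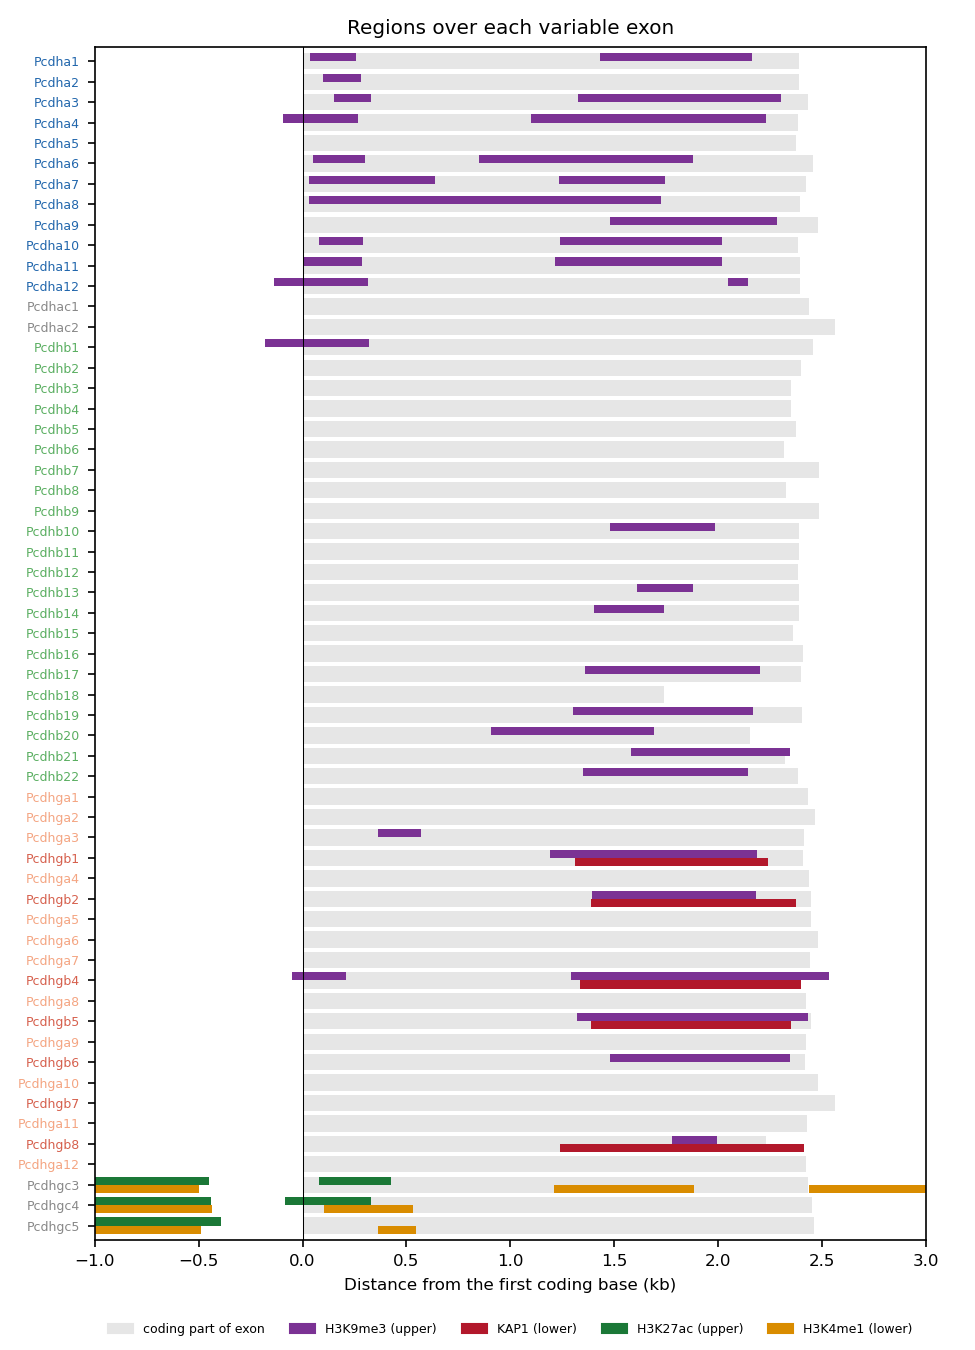
Each row is 1 of the 58 variable exons in genome order, aligned at its first coding base, with distance in kb on the horizontal axis; grey bars are the coding part and coloured bars are H3K9me3, KAP1, H3K27ac and H3K4me1 regions. In 8 of the 12 alternate α rows H3K9me3 lies both at the start and further in, 8 of the 22 β rows and 6 of the 7 γB rows have an inner region, and KAP1 lies under the inner one in 5 γB rows.

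Within the exon the regions fell mostly into a start and an inner position. In 8 of the 12 alternate α exons H3K9me3 formed 2 separate regions, 1 at the start of the coding sequence and 1 further in. The 10 α regions that began before or within the first 500 coding bases had a median width of 266 bp and a median centre 181 bp from the first coding base, and the 9 that began later, between 850 and 2049 bp, had a median width of 799 bp and a median centre at 1665 bp. The single region of Pcdha8 spanned both positions. In the β cluster 8 of the 9 regions were of the inner kind, with a median centre at 1739 bp. Pcdhb1, the first β gene and the only one with the outer kind, had a 497 bp region over its start. Among the γB exons 6 regions were of the inner kind, with a median centre at 1881 bp and a median width of 930.5 bp, and Pcdhgb4 alone also had one at its start.

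Per base, coverage over the α exons was 47.3% in the first 500 coding bases, 13.1% from base 501 to 1000, 41.2% from base 1001 to 1500 and 64.1% from base 1501 to 2000. The β exons had 2.89%, 0.827%, 10.0% and 28.2% in the same 4 parts. In the γB exons these parts had 6.03%, 0%, 23.6% and 77.6%. The 1 kb before the first coding base, where the promoters lie, was covered to 1.9% for α, 0.814% for β and 0.743% for γB. The α regions at the start therefore lay mostly downstream of the first coding base.

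**Figure D3:**
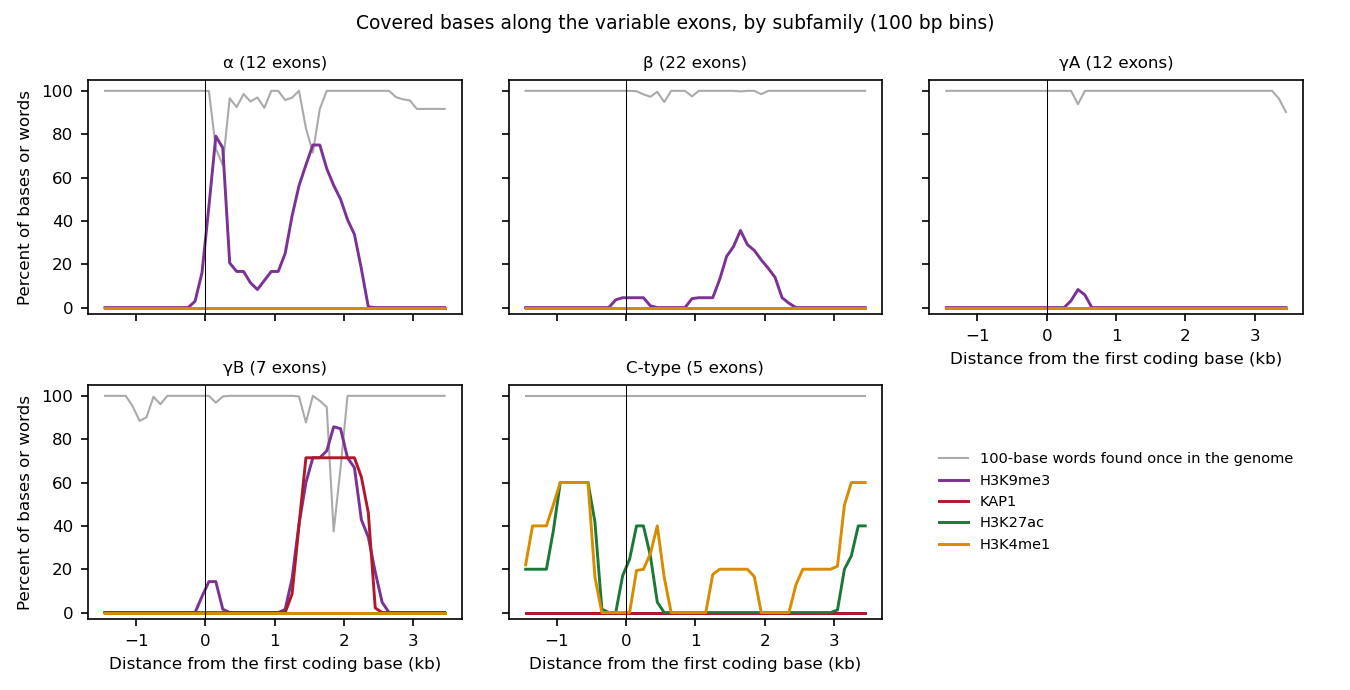
Percent of bases covered by H3K9me3, KAP1, H3K27ac and H3K4me1 in 100 bp bins against distance from the first coding base (kb, from 1500 bp before it to 3500 bp after it), averaged over the exons of each subfamily; the grey line is the percent of 100-base words that occur once in the mm9 genome. The α panel has 2 H3K9me3 maxima, the β and γB panels 1 main one, within the window shown KAP1 rises in the γB panel alone, and the grey line dips at both α maxima and at the γB maximum.

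KAP1 was found over the exons of 1 subfamily. None of the 41 GENCODE M1 exons overlapped a KAP1 peak, and 5 of all 58 did (8.62%), against 5.01% of all protein-coding genes and 7.07% of those with a longest coding exon of 2 kb or more. Over the whole set the share was thus near the background. All 5 were γB exons, namely Pcdhgb1, Pcdhgb2, Pcdhgb4, Pcdhgb5 and Pcdhgb8, so 5 of the 7 γB exons had a peak and 0 of the 12 γA exons. None of the 5 is in GENCODE M1, so a count over annotated exons misses every one. The α and β clusters, 257 kb and 256 kb long, held 0 KAP1 peaks. The γ cluster held 5, which covered 3.05% of it, 4.99 times the covered share of the genome (0.612%). With peaks above the median score alone it was 1.34%.

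The 5 peaks were not of equal strength. The deposited KAP1 score was 233.37 at Pcdhgb8 (rank 2457 of 12470 peaks), 203.9 at Pcdhgb4 (rank 2875), 94.66 at Pcdhgb1 (rank 6707), 81.06 at Pcdhgb5 (rank 7874) and 75.97 at Pcdhgb2 (rank 8433). Pcdhgb8 and Pcdhgb4 thus lie above the median score of the list, 101.53, and the other 3 exons below it. In mm9 the strongest peak spanned chr18:37922773-37923947 and the weakest chr18:37850998-37851986.

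Their positions were much alike, counted from the first base of each reading frame. The peaks began between 1240 and 1386 bp and ended between 2238 and 2415 bp after the first coding base, with widths from 927 to 1175 bp. For Pcdhgb8 this rests on a frame that differs by 1306 bp from the RefSeq length used for its name, against 98 to 183 bp for the other 4 exons. The peaks covered from 38.5% of the exon of Pcdhgb1 to 44.4% of that of Pcdhgb8. No KAP1 peak lay over the first 1000 coding bases or within 250 bp of the first coding base of any of the 58 isoforms.

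Each of the 5 KAP1 peaks overlapped an H3K9me3 region, as did 40.1% of KAP1 peaks genome-wide, and none overlapped H3K27ac, as 42.0% did genome-wide. The H3K9me3 region was wider than the peak at Pcdhgb1 (997 bp), Pcdhgb4 (1243 bp) and Pcdhgb5 (1110 bp) and narrower at Pcdhgb2 (788 bp). At Pcdhgb8, which had the highest KAP1 score, it was 216 bp wide and lay inside the peak. Pcdhgb6 carried H3K9me3 over 864 bp in the same part of the exon with no KAP1 peak within 8592 bp, and Pcdhgb7 carried neither. Read the other way, 5 of the 8 H3K9me3 regions in the γ cluster overlapped KAP1, while 0 of 24 in the α cluster and 0 of 13 in the β cluster did, against 8.53% of H3K9me3 regions genome-wide.

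The γB exons are also much alike in the part where the peaks lie. The stretch common to all 5 peaks runs from base 1387 to base 2238, counted from the first coding base. It passes the end of the coding part of Pcdhgb8 (2232 bp), Pcdhb20 (2151 bp) and Pcdhb18 (1738 bp). In it the 5 KAP1-covered exons had a median identity to one another between 84.6% and 87.3%, and the highest single values were those of Pcdhgb1 (95.8%) and Pcdhgb2 (96.4%). Pcdhgb6 reached a median of 85.2% to the 5, inside the range of the covered exons, and Pcdhgb7 80.6%, below it. The 12 γA exons reached between 60.3% and 63.4%, the β exons between 54.6% and 61.5%, the α exons between 57.0% and 58.6% and the C-type exons between 55.5% and 57.2%. The stretch was set by the peaks themselves, so these values describe the exons and test nothing. They set each exon against the covered γB exons and not against its own subfamily. Over the last 1000 coding bases, pairs within a subfamily had a median identity of 78.3% in α, 79.6% in β and 73.3% in γA. It was 60.9% in γB and 51.6% in the C-type exons.

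**Figure D4:**
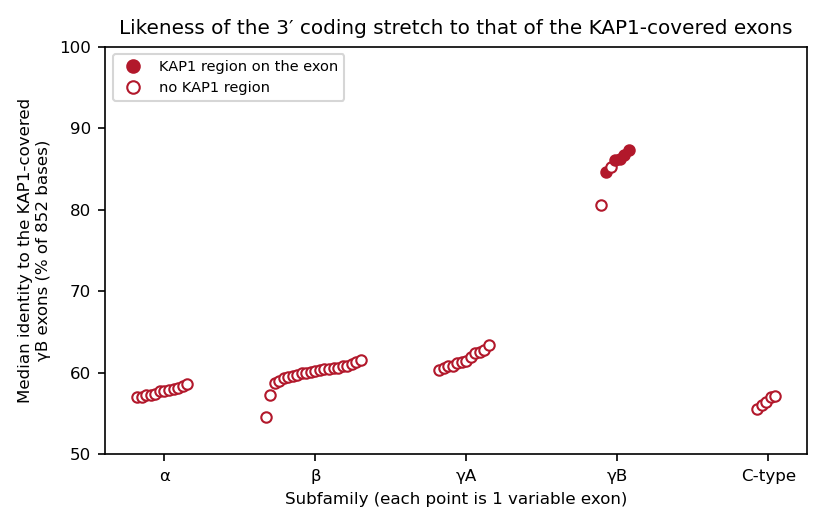
Median percent identity to the 5 KAP1-covered γB exons over 852 bases, from base 1387 to 2238 counted from the first coding base, by subfamily. This stretch runs past the coding part of Pcdhb18, Pcdhb20 and Pcdhgb8. Each point is 1 exon, and filled points carry a KAP1 region. The 7 γB exons lie between 80.6% and 87.3% and every other exon at or below 63.4%.

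Likeness between exons also bears on what reads can show. A 100-base word, the length of the reads, occurred once in the genome at 92.6% of positions in coding bases 1501 to 2000 of the α exons, at 99.6% in the β exons, at 100% in the γA exons and at 79.4% in the γB exons. In the first 500 coding bases of the α exons the share was 85.6%. By 100 bp bins it was lowest at 200 to 300 bp in α, 65.7%, and at 1800 to 1900 bp in γB, 37.4%. H3K9me3 covered 73.7% and 85.7% of these bins. Under H3K9me3 the median share of words found once was 85.0% over the 11 marked α exons. In the unmarked bases of the α exons it was 99.4%. For the 6 marked γB exons the medians were 84.1% under the mark and 100% over the unmarked bases of all 7. The lowest shares under the mark were those of the narrow regions of Pcdhgb8 (47.7%) and Pcdha2 (56.4%). At the KAP1 peaks of Pcdhgb1 and Pcdhgb2 the shares were 73.8% and 73.6%, and at the other 3 peaks between 90.4% and 93.9%. How reads that fit several places were placed was not stated, and the part of repeated sequence in these regions was not tested. The 9 marked β exons had a median of 100% under the mark.

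Base composition was described for each subfamily. The median ratio of observed to expected CpG over the coding part was 0.68 in the α exons and 0.67 in the γB exons, the subfamilies marked most often, against 0.44 in the β, 0.47 in the γA and 0.45 in the C-type exons. The β range, from 0.32 to 0.50, lay below those of α (0.60 to 0.78) and γB (0.57 to 0.76). The ranges of γA (0.37 to 0.77) and of the C-type exons (0.36 to 0.71) overlapped them, and the unmarked exons of Pcdhga12 (0.77), Pcdhgb7 (0.74) and Pcdhgc3 (0.71) were among the high ones. The GC content was similar, with medians from 51.4% in β to 54.8% in the C-type exons. Pcdha5, the alternate α exon without H3K9me3, had a ratio of 0.78, the highest of the 58.

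Active marks were found at the other end of the γ cluster. H3K27ac and H3K4me1 had 0 regions in the whole of the α and β clusters and in the γ cluster up to the last base of Pcdhga12. In the 73.3 kb after it, H3K27ac had 9 regions covering 11.7% and H3K4me1 had 13 covering 14.8%, against 1.90% and 2.69% of the genome, while H3K9me3 and KAP1 had 0. Of all 58 variable exons 2 overlapped H3K27ac (4.86% of all genes over the longest coding exon) and 3 overlapped H3K4me1 (7.84% of all genes). These were the γ C-type exons. Pcdhgc3 had 347 bp of H3K27ac and 671 bp of H3K4me1, Pcdhgc4 had 428 bp and 450 bp, and Pcdhgc5 had 183 bp of H3K4me1 alone.

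Most of these active regions lay beside the exons. A 592 bp H3K27ac region overlapped the 1 kb before the first coding base of Pcdhgc3, a 1071 bp one that before Pcdhgc4 and a 656 bp one that before Pcdhgc5. The longest H3K27ac region of the cluster, 3060 bp wide, began inside the first γ constant exon and ran downstream of it, and it ranked 2283 by width among the 57562 H3K27ac regions of the genome. The α C-type exons Pcdhac1 and Pcdhac2 had no region of any list over them.

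PolII was found at 1 place in the clusters in each condition, the same one. The control peak spanned chr18:37984468-37985986 and was 1519 bp wide, with a deposited score of 64 (rank 1339 of 5015). Under Kap1 KD the peak spanned chr18:37983376-37986910 and was 3535 bp wide, with a score of 255 (rank 731 of 12862). Both contain the first constant exon of γ, which begins at base 37984675. The control peak lay inside the Kap1 KD peak and both overlapped H3K27ac. No annotated transcript starts under either peak. The nearest start upstream, that of a Pcdhgc5 transcript, lay 5160 bp from the control peak and 4068 bp from the Kap1 KD peak. The ratio of observed to expected CpG was 0.21 under the control peak, lower than over any variable exon.

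The Kap1 KD peak was 2.33 times as wide as the control peak. Over the 4320 control peaks that overlapped a Kap1 KD peak the median ratio was 1.38, and 21.2% of them had a ratio at least as large as the γ peak. With its rank of 731 the Kap1 KD peak is by construction among the 5015 highest scores of that list, as many as the control cells have. Each condition is 1 library of unknown depth, so the knockdown and the library cannot be told apart.

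None of the 58 variable exons overlapped a PolII peak in the control (4.25% of all genes over the longest coding exon) or under Kap1 KD (7.63%). The same held for PolIII (0.398% and 0.0402%). The γB exons with KAP1 thus had no PolII peak in either condition. PolII peaks are numbered in genome order, and some numbers are missing from the lists (2290 in the control and 3745 under Kap1 KD) for a reason that was not stated. From the last PolII peak before the α cluster to the first one after the γ cluster 0 numbers were missing in either list.

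**Figure D5:**
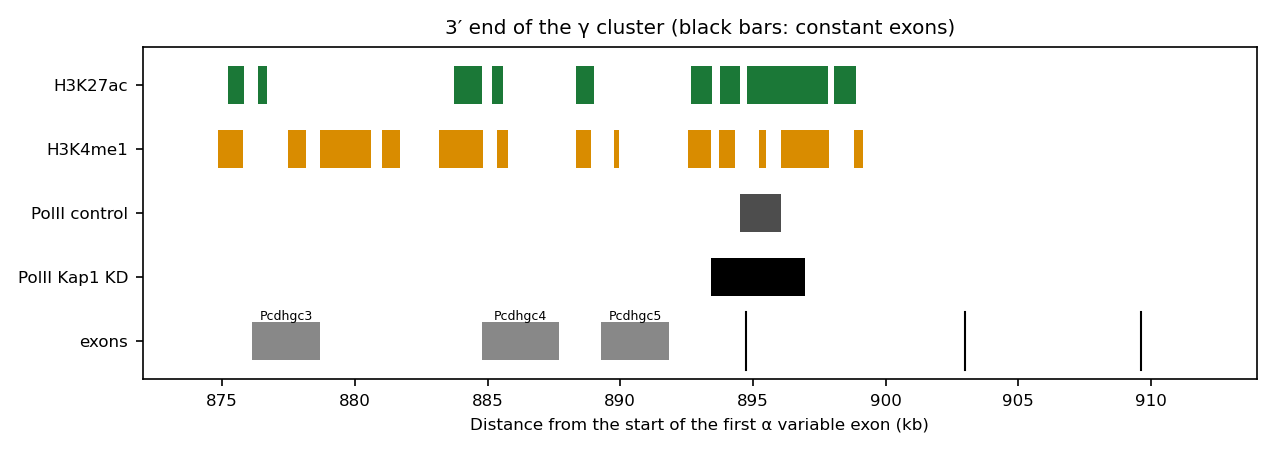
The last part of the γ cluster, with the 3 γ C-type exons (grey), the 3 constant exons (black bars) and the H3K27ac, H3K4me1 and PolII regions, against distance from the first α variable exon in kb. The single PolII peak of each condition contains the first constant exon, and it is 1519 bp wide in the control and 3535 bp wide under Kap1 KD.

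Genes between and beside the clusters carried active marks in part. Taf7, a gene for a general transcription factor subunit that lies between β and γ, had 2 H3K27ac regions over its promoter, and in both conditions PolII lay over the promoter of Diap1, an actin regulator after the γ cluster. The mitochondrial carrier gene Slc25a2, beside Taf7, had H3K9me3 over its promoter. The 153 kb from the end of the β cluster to Pcdhga3 include the exons of Pcdhga1 and Pcdhga2. In this stretch 13 H3K9me3 regions covered 3.95%, and 1 KAP1 peak lay there, with a score of 70.21. In the 100 kb before the α cluster 12 H3K9me3 regions covered 10.4% and 3 KAP1 peaks had scores of 377.07, 248.15 and 60.31. After the γ cluster 100 kb held 0 H3K9me3 regions and 1 KAP1 peak, with a score of 58.16. In these 100 kb 8 H3K27ac regions covered 5.7% and 9 H3K4me1 regions covered 14.6%.

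Of the 25 member genes 3 had H3K9me3 over the promoter, against 5.24% of all protein-coding promoters. None had KAP1 (15.7%), H3K27ac (19.9%), H3K4me1 (11.8%), PolII (13.1% in the control and 23.3% under Kap1 KD) or PolIII (0.344% and 0.134%). Counted from the first coding base of each isoform, 12 of 58 had H3K9me3 within 250 bp, 2 had H3K27ac and 1 had H3K4me1. Among the other groups of genes, KAP1 lay over the longest coding exon of 76 of 371 Zfp genes (20.5%), 1 of 1113 olfactory receptor genes and 2 of 12 protocadherin genes outside the clusters. These last were Pcdh10, with KAP1 over 31.4% and H3K9me3 over 36.1% of the exon, and Pcdh8, with KAP1 over 18.8%.

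A list of 17 genes known to act on these clusters or on KAP1 was looked up at their promoters. KAP1 lay over 2, those of the cohesin subunit Rad21 and the cohesin loader Nipbl, against 15.7% of all protein-coding promoters, and H3K9me3 over 0, against 5.24%. H3K27ac lay over 5 (Rad21, Smc3, Smchd1, Setdb1 and Atrx), against 19.9%, and H3K4me1 over 3 (Rad21, Wiz and Atrx), against 11.8%. PolII lay over 5 in the control, including Ctcf, the insulator protein gene, and Trim28 itself. Under Kap1 KD it lay over 10, which included those 5. Of all protein-coding promoters 13.1% carried PolII in the control and 23.3% under Kap1 KD.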

How the data were processed

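Lists of ChIP-seq regions from Hepa 1-6 cells were analysed for 8 of 13 samples. The other 5, sequenced inputs, were not analysed here. Per the methods of the study the authors mapped single-end reads of 100 bases with Bowtie to mm9 (Bowtie1 for the peak calls), used MACS with total input as the background for KAP1 and PolII, and used ChIP-Part for the histone marks. The caller for PolIII, exact versions and options are not given in the sources used here. The deposited KAP1 score is taken to be that of MACS. The PolII and PolIII score deposited by the authors is a whole number of unstated meaning, so each score served only to rank peaks within a list. Histone lists hold positions alone. Depth is unknown.

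Overlaps of at least 1 bp were counted with Python 3.11.15 and numpy 2.4.6 (interval code tested on simulated data) against GENCODE M1. Identities are edit distances from edlib 1.3.9.post1. Because the annotation merges isoforms, exons were taken per transcript, and the 17 added exons are an alternative chosen after seeing the data, named by RefSeq gene lengths (closest within 1500 bp). Backgrounds used the longest coding exon of each protein-coding gene, members included. Genes named are the most and least covered exons of each cluster, exons with a region of another list, C-type exons, neighbours and the lists of markers and regulators. Members and lists were chosen with earlier results of these data known. No sequence of the locus is printed.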

Additional observations from a re-analysis of the deposited data

How the results depend on the processing

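Each list is 1 library, so no replicate could be left out. No paired analysis was possible because each list comes from 1 library and the inputs have no list. Of 64 alternative counts of variable exons 56 stayed within 1.5 times the main count, but 39 of them were 0 in both, so 17 of the 25 others stayed. The added set of 58 exons, chosen after seeing the data, raised KAP1 from 0 to 5. For H3K9me3 the count of 19 fell to 1 when 0.5 of the exon had to be covered, to 8 within 250 bp of the exon start and to 9 within 1 kb of it. When 0.5 of the exon was required, H3K27ac (2) and H3K4me1 (3) both fell to 0. H3K27ac fell to 1 with regions above the median width alone, and H3K4me1 to 1 within 250 bp of the exon start. Of 48 covered shares of clusters 32 were 0 in both, and 13 of the 16 others stayed within the 95% Wilson interval over 1 kb units, an interval wide enough to hold the KAP1 share of the γ cluster at both 3.05% and, with peaks above the median score alone, 1.34%. Without the constant exons the γ cluster was covered to 2.09% by H3K27ac, and to 0% by PolII in the control and under Kap1 KD. These moves follow by construction from the exons, bases or regions counted. Region centres per 100 kb are in another unit and stand beside the covered shares. Of 16 alternative backgrounds 14 left their interval. The absence of a region says only that none was called: depth is unknown, and how reads that fit several exons were placed was not stated.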
